A study of Oryza sativa with 12 samples.

Results

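The cytochrome P450 genes of rice were followed across 4 lines in young panicles at the 2-mm stage. Members were the transcripts whose description in the deposited count table contained the words cytochrome P450, spelled with or without a hyphen. The description matched 240 transcripts, 2 were left out by identifier, and 238 transcripts of 221 loci remained, out of 40722 transcripts of 34126 loci in the table. The words also matched 4 transcripts of 3 loci described as NADPH-cytochrome P450 reductase, which are not P450s themselves but pass them electrons. A general description such as cytochrome P450 family protein was all that 171 members had, and 67 had a more specific one.

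Cytochromes P450 are heme enzymes that insert an oxygen atom from molecular oxygen into a substrate, and in plants most of them sit in the endoplasmic reticulum and take electrons from NADPH-cytochrome P450 reductase. Plant P450s build and break down the steroid hormones called brassinosteroids, the gibberellins, abscisic acid, jasmonate and strigolactones, and they make sterols, carotenoids, lignin, flavonoids, cutin and defence compounds. Brassinosteroids and gibberellins promote cell elongation in rice shoots and panicles.

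The lines compared were NIL-Prl5ST-1+Pbl6ST-1, NIL-Pbl6ST-1, NIL-Prl5ST-1 and Koshihikari. Koshihikari is a japonica cultivar and carried the WT genotype. The other lines were near-isogenic lines (NILs) that held segments of the cultivar ST-1 in Koshihikari: NIL-Prl5ST-1 the Prl5 segment of chromosome 5 with a gibberellin 20-oxidase gene, NIL-Pbl6ST-1 the Pbl6 segment of chromosome 6 with the F-box gene APO1, and NIL-Prl5ST-1+Pbl6ST-1 both. They came from a cross of ST-1 with Koshihikari that was backcrossed to Koshihikari and selected with markers, so that each line may also hold other ST-1 sequence around the named gene, and the plants grew in a paddy field. Each line had 3 libraries, and the labels did not say which plants a library pooled, so the p-values measure the spread between these libraries.

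Library totals ranged from 16041196 to 31760529 counts, and 3 counts corresponded to 0.0945 to 0.187 counts per 1e6 reads (cpm). NIL-Prl5ST-1 replicate 2 and Koshihikari replicate 2 stood apart from their lines on the first principal component of all transcripts (41.4% of the variance). NIL-Prl5ST-1 replicate 2 scored 18 against 52 and 55.4 for the other NIL-Prl5ST-1 libraries, and Koshihikari replicate 2 scored 25.7 against -8.27 and -2.29 for the other Koshihikari libraries. On the second component (21.3% of the variance), NIL-Prl5ST-1+Pbl6ST-1 replicate 3 stood apart, at -28.9 against 3.01 and 11 for the other NIL-Prl5ST-1+Pbl6ST-1 libraries and -41.9 to -2.14 for Koshihikari. The 4 listed young panicle marker loci summed to 311 to 346 cpm in NIL-Prl5ST-1+Pbl6ST-1, 386 to 424 in NIL-Pbl6ST-1, 269 to 346 in NIL-Prl5ST-1 and 299 to 363 in Koshihikari. All NIL-Pbl6ST-1 libraries lay above all other libraries in this sum. No marker transcript passed against Koshihikari, and 1 of 4 was lower in NIL-Prl5ST-1+Pbl6ST-1 against NIL-Pbl6ST-1 (0.395% of all transcripts). In the test of any difference among the 4 lines, 2 passed (28.2% of all transcripts). A difference in stage or cell composition was not tested. A root marker did not exceed 0.052 cpm in any library. The transcript of Prl5 had 2.72 to 3.0 cpm in NIL-Prl5ST-1 and 2.19 to 2.73 cpm in Koshihikari (edgeR adjusted p = 0.489), and that of Pbl6 had 1.22 to 1.69 cpm in NIL-Pbl6ST-1 and 1.07 to 2.23 cpm in Koshihikari (edgeR adjusted p = 0.629), and neither difference passed. Prl5 had 2.92 to 4.78 cpm in NIL-Prl5ST-1+Pbl6ST-1 and 2.69 to 3.64 in NIL-Pbl6ST-1, which lacks its segment (edgeR adjusted p = 0.183 and 0.181 against Koshihikari). Pbl6 had 0.89 to 1.72 cpm in NIL-Prl5ST-1+Pbl6ST-1 and 1.39 to 1.84 in NIL-Prl5ST-1 (edgeR adjusted p = 0.627 and 0.946 against Koshihikari).

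P450 transcripts made up a small and uneven share of the panicle RNA. With 1 transcript counted per locus, the member loci took 0.0984 to 0.101% of the counts in NIL-Prl5ST-1+Pbl6ST-1, 0.0880 to 0.0964% in NIL-Pbl6ST-1, 0.0882 to 0.0954% in NIL-Prl5ST-1 and 0.0967 to 0.10% in Koshihikari. All libraries of NIL-Pbl6ST-1 and NIL-Prl5ST-1 lay below all libraries of Koshihikari in this share, while NIL-Prl5ST-1+Pbl6ST-1 overlapped Koshihikari. The 5 most counted loci held 47.6% of the member counts. A mean of at least 10 cpm was reached by 19 loci, and 160 loci had a mean below 1 cpm. Each library had at least 1 count for 145 to 167 of the 221 loci.

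The most counted member was Os06t0680700-01, a P450 family protein of chromosome 6, with 148, 178 and 146 cpm in NIL-Prl5ST-1+Pbl6ST-1, 171, 163 and 156 in NIL-Pbl6ST-1, 112, 141 and 99.3 in NIL-Prl5ST-1 and 165, 149 and 128 in Koshihikari. Os11t0525200-01, described as similar to P450 51, the obtusifoliol 14-alpha demethylase of sterol synthesis, was next with 153, 154 and 141 cpm in NIL-Prl5ST-1+Pbl6ST-1, 150.2, 163 and 140.2 in NIL-Pbl6ST-1, 109, 136 and 104 in NIL-Prl5ST-1 and 142, 131 and 131 in Koshihikari. The other 3 of the 5 were Os08t0547300-01, Os04t0469800-01 and the reductase Os04t0653400-01, with means over the 12 libraries of 61.9, 59.4 and 55 cpm. These levels are shares of reads and were not divided by transcript length.

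The low end of the family was broad. No library had more than 3 counts for 83 of the 238 members, and only 71 members had at least 10 counts in every library. After the filter on low counts, 112 members of 99 loci were tested, among 31643 transcripts in all. The largest mean count of the 126 untested members was 6.92, and no statement on change can be made for them at this depth. The untested members included the only CYP734A7-like transcript, Os07t0647200-00, both CYP79A1-like transcripts and all 4 CYP71Y10-like transcripts. No member had at most 3 counts in every library of a line and a mean of at least 50 in another.

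Members lay on all 12 chromosomes, with 38 transcripts on chromosome 1, 31 on chromosome 3, 29 on chromosome 2 and 28 on chromosome 10. The identifiers follow chromosome order, and 94 member loci fell into 37 runs of neighbours with locus numbers at most 500 apart, the longest of 5 loci. Such neighbours can be recent copies of each other, and the treatment of reads that match several loci was not given in the sources used here. In 15 loci with several member transcripts, the same reads can count for each transcript, and their values are not separate evidence.

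The 5 comparisons between lines asked what each segment did alone, what the pair did, and what 1 segment added to the other. Os08t0547300-01, similar to P450 78A1, was lower in NIL-Pbl6ST-1 against Koshihikari and in NIL-Prl5ST-1+Pbl6ST-1 against NIL-Prl5ST-1. Os04t0469800-01, the brassinosteroid P450 OsDWARF11, was higher in the same 2 comparisons. Most calls came from NIL-Prl5ST-1+Pbl6ST-1 against NIL-Prl5ST-1, where 28 of 112 members passed the adjusted threshold of 0.05. The comparisons share libraries, so the calls of 1 are not independent of the calls of another. In whole panicles, fewer cells of a type and less RNA per cell cannot be told apart.

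In NIL-Prl5ST-1 against Koshihikari, 2 members (1.79%) passed, 1 higher and 1 lower, against 0.743% of all transcripts tested, 0.382% higher and 0.36% lower. This order turned in other fits of the same comparison, with 2 members (1.79%) beside 6.34% of all transcripts in DESeq2, 3 (2.68%) beside 8.15% in edgeR's exact test and 6 (5.36%) beside 11.5% with all 12 libraries in 1 fit. In NIL-Pbl6ST-1 against Koshihikari, 15 members (13.4%) of 11 loci passed, 3 higher and 12 lower, against 8.49% of all transcripts, 3.07% higher and 5.42% lower. Here the order turned without Koshihikari replicate 2 (18.8% of members beside 23.2%) and with no filter (6.3% beside 7.63%). It held in the other fits, at 11% beside 7.81% with counts summed to loci. In NIL-Prl5ST-1+Pbl6ST-1 against Koshihikari, 5 members (4.46%) of 4 loci passed, all lower, against 2.16% of all transcripts, 0.863% higher and 1.3% lower. For NIL-Prl5ST-1+Pbl6ST-1 against NIL-Prl5ST-1, 12 members were higher and 16 lower, 25% of those tested, against 25.3% of all transcripts, 13.2% higher and 12.1% lower. For NIL-Prl5ST-1+Pbl6ST-1 against NIL-Pbl6ST-1, 1 member (0.893%) passed, higher, against 0.777% of all transcripts, 0.382% higher and 0.395% lower.

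Of the 112 tested members, those whose libraries did not overlap between the lines were counted as well. There were 17 higher and 31 lower in NIL-Pbl6ST-1 against Koshihikari, beside 14.9% and 14.9% of all transcripts tested. The counts were 6 higher and 10 lower in NIL-Prl5ST-1 against Koshihikari (12.7% and 11.7% of all transcripts), and 18 higher and 24 lower in NIL-Prl5ST-1+Pbl6ST-1 against Koshihikari (10.5% and 9.65%). They were 18 higher and 26 lower in NIL-Prl5ST-1+Pbl6ST-1 against NIL-Prl5ST-1 (21.3% and 20.2%), and 11 higher and 7 lower in NIL-Prl5ST-1+Pbl6ST-1 against NIL-Pbl6ST-1 (9.82% and 10.4%).

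By the adjusted p, the members' share in NIL-Prl5ST-1+Pbl6ST-1 against NIL-Prl5ST-1 was near that of all transcripts, and in NIL-Prl5ST-1 against Koshihikari and NIL-Prl5ST-1+Pbl6ST-1 against NIL-Pbl6ST-1 it rested on 1 or 2 members. The median log2 fold change of the tested members was -0.10 in NIL-Pbl6ST-1 against Koshihikari, beside -0.00 over all transcripts, and 0.04 in NIL-Prl5ST-1+Pbl6ST-1 against NIL-Prl5ST-1, beside 0.00. It was -0.03, -0.02 and 0.05 in NIL-Prl5ST-1 against Koshihikari, in NIL-Prl5ST-1+Pbl6ST-1 against Koshihikari and in NIL-Prl5ST-1+Pbl6ST-1 against NIL-Pbl6ST-1, beside -0.01, -0.01 and 0.01 over all transcripts. Any difference among the 4 lines was found for 33 members of 27 loci (29.5%), against 28.2% of all transcripts. In all, 38 members of 31 loci passed in at least 1 of the 7 tests. The matching share of all transcripts is not given here. It cannot be below the 28.2% of the test of any difference, so nothing about the members is read from this count.

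**Figure D1:**
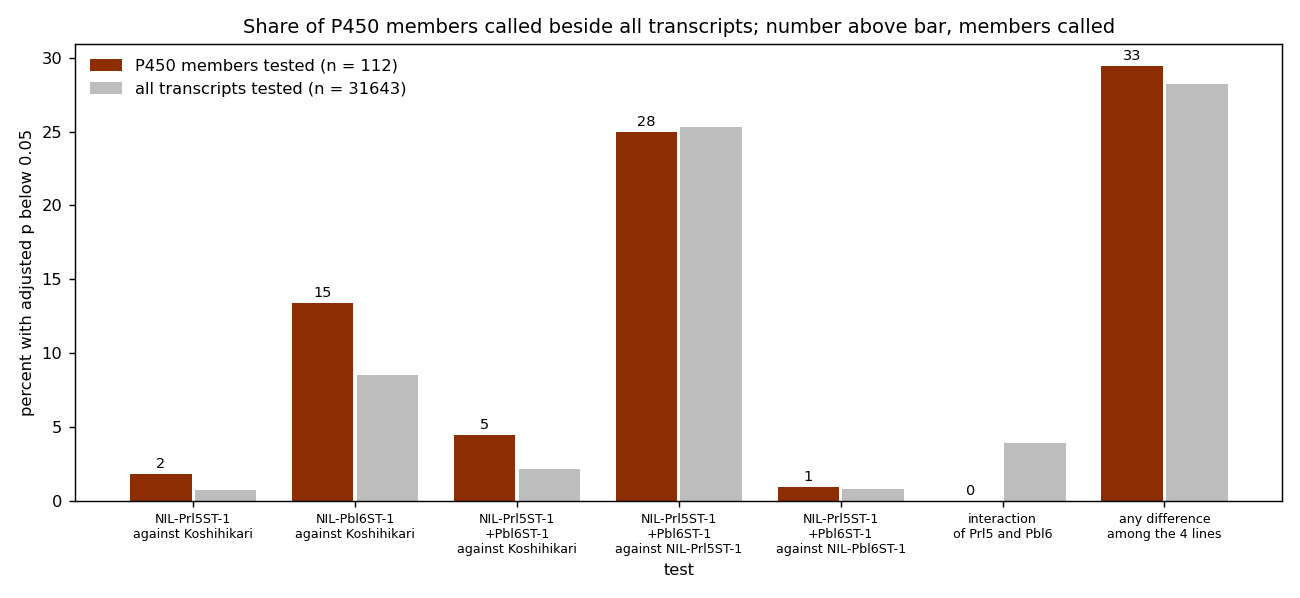
Percent of the 112 P450 members tested (brown) and of all 31643 transcripts tested (grey) with an adjusted p below 0.05 in each of 7 tests (horizontal axis), with the number of members above the brown bar. Both bars are near 25% in NIL-Prl5ST-1+Pbl6ST-1 against NIL-Prl5ST-1, and the brown bar is higher in NIL-Pbl6ST-1 against Koshihikari (13.4% beside 8.49%). The latter order turned without Koshihikari replicate 2 (18.8% beside 23.2%).

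The interaction test, which asks whether the Pbl6 segment shifted a transcript differently with and without the Prl5 segment, passed for 0 members in edgeR after adjustment and for 0 in DESeq2, against 3.93% of all transcripts in edgeR and 11.2% in DESeq2. At an unadjusted p under 0.05 it found 16 of 112 members, against 28.9% of all transcripts. Without Koshihikari replicate 2 it passed for 9 members, 8.04% beside 24% of all transcripts. Without NIL-Prl5ST-1 replicate 2 it passed for 5 (4.46% beside 16.5%), and without both for 11 (9.82% beside 32.1%).

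Both libraries that stood apart on the first component also moved other counts, each out of 112 members tested. Without Koshihikari replicate 2, NIL-Prl5ST-1 against Koshihikari had 8 members (20.8% of all transcripts) and NIL-Pbl6ST-1 against Koshihikari had 21 (23.2%). Without NIL-Prl5ST-1 replicate 2, NIL-Prl5ST-1 against Koshihikari had 8 members (11.3%) and NIL-Prl5ST-1+Pbl6ST-1 against NIL-Prl5ST-1 had 34 (35.3%). With both left out, NIL-Prl5ST-1 against Koshihikari had 26 members, beside 36.8% of all transcripts. The count was 0 without NIL-Prl5ST-1 replicate 1 (0.209% of all transcripts) and 1 without NIL-Prl5ST-1 replicate 3 (0.202%), Koshihikari replicate 1 (0.199%) or Koshihikari replicate 3 (0.319%). Any difference among the lines was found for 19 members without NIL-Prl5ST-1 replicate 1 (12% of all transcripts) and for 19 without NIL-Prl5ST-1 replicate 3 (11.5%). Without NIL-Prl5ST-1+Pbl6ST-1 replicate 3, NIL-Prl5ST-1+Pbl6ST-1 against NIL-Prl5ST-1 had 20 members (16.0% of all transcripts), NIL-Prl5ST-1+Pbl6ST-1 against Koshihikari 5 (2.06%), NIL-Prl5ST-1+Pbl6ST-1 against NIL-Pbl6ST-1 1 (0.667%), the interaction 0 (0.0411%) and any difference 28 (23.9%).

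Brassinosteroid synthesis was described for 7 members, 6 of which were tested, and 1 of these changed. Os04t0469800-01 is OsDWARF11, which takes part in brassinosteroid synthesis in rice. It had 62, 64.3 and 71.8 cpm in NIL-Prl5ST-1+Pbl6ST-1, 69.6, 71.8 and 82 in NIL-Pbl6ST-1, 41.8, 52.4 and 41.1 in NIL-Prl5ST-1 and 51, 46.2 and 58.6 in Koshihikari. Every library of NIL-Prl5ST-1+Pbl6ST-1 and NIL-Pbl6ST-1 lay above every library of NIL-Prl5ST-1 and Koshihikari.

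The means were 74.5 ± 6.62 cpm in NIL-Pbl6ST-1 and 51.9 ± 6.27 cpm in Koshihikari (SD, n = 3 each), a log2 fold change of 0.51 (SE 0.11, edgeR adjusted p = 0.0114). Without NIL-Pbl6ST-1 replicate 3 this adjusted p was 0.0684. For NIL-Prl5ST-1+Pbl6ST-1 and NIL-Prl5ST-1 the means were 66 ± 5.13 and 45.1 ± 6.34 cpm (SD, n = 3 each), a log2 fold change of 0.55 (SE 0.11, edgeR adjusted p = 0.00292), which passed with each library left out. Against Koshihikari, the log2 fold change of 0.34 in NIL-Prl5ST-1+Pbl6ST-1 did not pass (edgeR adjusted p = 0.152), although the libraries did not overlap. An exact permutation test of 3 libraries against 3 cannot give a p below 0.1, which is what it gave for all non-overlapping pairs of lines.

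The other P450s described with brassinosteroid synthesis did not follow it past the threshold. On a brassinosteroid inactivation list written by locus number, 2 of 3 tested transcripts were higher in NIL-Prl5ST-1+Pbl6ST-1 against NIL-Prl5ST-1, beside 13.2% of all transcripts. Os03t0602300-01, the C-6 oxidase OsDWARF (P450 85A1), had 13.2, 11.6 and 15.4 cpm in NIL-Prl5ST-1+Pbl6ST-1, 14, 12.6 and 13.4 in NIL-Pbl6ST-1, 11.8, 14.9 and 9.16 in NIL-Prl5ST-1 and 12.1, 12.9 and 15.7 in Koshihikari, and all 4 lines overlapped. The pair similar to P450 90A1, Os12t0139300-01 and Os11t0143200-01, had 8.1 to 12.9 cpm and 7.14 to 11.5 cpm over the 12 libraries. Near-identical copies may share reads, so these 2 values are uncertain. Os01t0197100-00, similar to P450 90C1, had 2.19 to 4.05 cpm in NIL-Prl5ST-1+Pbl6ST-1, 2.06 to 2.75 in NIL-Pbl6ST-1, 2.57 to 3.29 in NIL-Prl5ST-1 and 2.49 to 3.89 in Koshihikari. Os07t0136800-02, similar to P450 90D2, stayed between 0.769 and 2.5 cpm, and Os05t0200400-01, similar to CYP90D10.b, was untested with at most 0.384 cpm.

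The rest of the brassinosteroid pathway was covered by a list of 9 loci outside the P450s, with 11 transcripts, all tested. None of the 11 passed in NIL-Prl5ST-1+Pbl6ST-1, NIL-Pbl6ST-1 or NIL-Prl5ST-1 against Koshihikari. Between NIL-Prl5ST-1+Pbl6ST-1 and NIL-Prl5ST-1, 3 were higher and 1 lower, beside 25.3% of all transcripts. The brassinosteroid receptor kinase transcript Os01t0718300-01 had 256, 267 and 284 cpm in NIL-Prl5ST-1+Pbl6ST-1 and 183, 231 and 174 cpm in NIL-Prl5ST-1, a log2 fold change of 0.46 (SE 0.11, edgeR adjusted p = 0.00966). Os08t0174700-01, similar to the co-receptor kinase SERK1, had 100.4, 94.4 and 107 cpm in NIL-Prl5ST-1+Pbl6ST-1 and 68.3, 83.8 and 66.5 cpm in NIL-Prl5ST-1, a log2 fold change of 0.47 (SE 0.11, edgeR adjusted p = 0.00597). Os01t0851600-01, a steroid reductase domain protein, was the lower one, with 5.25, 5.93 and 4.5 cpm in NIL-Prl5ST-1+Pbl6ST-1 and 8.09, 7.18 and 6.44 cpm in NIL-Prl5ST-1, a log2 fold change of -0.45 (SE 0.15, edgeR adjusted p = 0.0421).

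Sterol synthesis was described for both transcripts of 1 locus, whose reads can overlap. Os11t0525200-01, whose values stand above, averaged 149 ± 7.08 cpm in NIL-Prl5ST-1+Pbl6ST-1 and 116 ± 17.2 cpm in NIL-Prl5ST-1 (SD, n = 3 each). Its log2 fold change was 0.36 (SE 0.11, edgeR adjusted p = 0.0248), and that of Os11t0525200-02 was 0.37 (edgeR adjusted p = 0.0225). The lines did not overlap, but both calls were lost in 4 of the 6 fits that left out a library. Against Koshihikari no line passed.

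Of the 3 reductase loci, 1 changed. Os04t0653400-01 had 58.2, 55 and 63.1 cpm in NIL-Prl5ST-1+Pbl6ST-1, 53.2, 62.4 and 54.1 in NIL-Pbl6ST-1, 47.4, 53 and 45.6 in NIL-Prl5ST-1 and 57.3, 50.7 and 60.6 in Koshihikari. Os09t0558900-01 had 41, 43.1 and 46.2 cpm in NIL-Prl5ST-1+Pbl6ST-1, 39.8, 43.8 and 40.6 in NIL-Pbl6ST-1, 38, 36.1 and 35.9 in NIL-Prl5ST-1 and 40.1, 33.2 and 42.2 in Koshihikari. Neither passed in NIL-Prl5ST-1+Pbl6ST-1 against NIL-Prl5ST-1 (edgeR adjusted p = 0.0541 and 0.0651). Os08t0243500-01, similar to isoform 2 of the reductase, had 14.7, 15.8 and 14.7 cpm in NIL-Prl5ST-1+Pbl6ST-1, 13.1, 15 and 15.8 in NIL-Pbl6ST-1, 8.25, 9.87 and 8.48 in NIL-Prl5ST-1 and 12.4, 9.73 and 13.4 in Koshihikari.

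All 3 NIL-Prl5ST-1 libraries of Os08t0243500-01 lay below all NIL-Prl5ST-1+Pbl6ST-1 and NIL-Pbl6ST-1 libraries, and Koshihikari replicate 2 fell within the NIL-Prl5ST-1 range. The log2 fold change in NIL-Prl5ST-1+Pbl6ST-1 against NIL-Prl5ST-1 was 0.76 (SE 0.12, edgeR adjusted p = 0.000576) for Os08t0243500-01 and 0.78 (SE 0.14, edgeR adjusted p = 0.00125) for Os08t0243500-02, and both passed with each library left out. In NIL-Prl5ST-1 against Koshihikari the log2 fold change of -0.41 did not pass (edgeR adjusted p = 0.118).

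Gibberellin synthesis was described for ent-kaurene oxidase, Os06t0570100-01, which acts early in the pathway whose later step the gene at Prl5 catalyses. It had 11.8, 10.6 and 9.93 cpm in NIL-Prl5ST-1+Pbl6ST-1, 9.01, 9.92 and 8.65 in NIL-Pbl6ST-1, 11.9, 12.2 and 13.4 in NIL-Prl5ST-1 and 8.65, 11.2 and 12.2 in Koshihikari. The 3 NIL-Pbl6ST-1 libraries lay below all NIL-Prl5ST-1 libraries, but NIL-Pbl6ST-1 overlapped Koshihikari and no comparison passed. Os03t0332100-00, similar to the CYP714B3 family of gibberellin hydroxylases, was tested at 0.218 to 0.647 cpm and did not pass either.

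By description the CYP78A family was represented by 3 members, and plant CYP78A genes are known to promote organ growth. A CYP78A list written by locus number held 1 other tested member, which did not pass in any test. Its log2 fold change was 0.01 in NIL-Pbl6ST-1 against Koshihikari and 0.61 in NIL-Prl5ST-1+Pbl6ST-1 against NIL-Prl5ST-1. Os08t0547300-01, similar to P450 78A1, had 58.7, 48.2 and 58.5 cpm in NIL-Prl5ST-1+Pbl6ST-1, 38.8, 34 and 27.2 in NIL-Pbl6ST-1, 97, 80.7 and 93.3 in NIL-Prl5ST-1 and 65, 86.9 and 55 in Koshihikari. NIL-Pbl6ST-1 was lowest and NIL-Prl5ST-1 highest, and only the pairs NIL-Prl5ST-1 and Koshihikari, and NIL-Prl5ST-1+Pbl6ST-1 and Koshihikari, overlapped. Koshihikari replicate 2 was the highest Koshihikari library, at 86.9 cpm.

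The means of Os08t0547300-01 were 33.3 ± 5.86 cpm in NIL-Pbl6ST-1 and 68.9 ± 16.3 cpm in Koshihikari (SD, n = 3 each), a log2 fold change of -1.04 (SE 0.16, edgeR adjusted p = 0.00236). In NIL-Prl5ST-1+Pbl6ST-1 the mean was 55.1 ± 6.02 cpm and in NIL-Prl5ST-1 90.4 ± 8.54 cpm (SD, n = 3 each), a log2 fold change of -0.71 (SE 0.11, edgeR adjusted p = 0.000423). It was also the 1 member that passed in NIL-Prl5ST-1+Pbl6ST-1 against NIL-Pbl6ST-1, with a log2 fold change of 0.71 (SE 0.11, edgeR adjusted p = 0.0037). All 3 calls passed with each library left out, while the last had an adjusted p of 0.0613 when all 12 libraries shared 1 fit. Neither NIL-Prl5ST-1+Pbl6ST-1 nor NIL-Prl5ST-1 passed against Koshihikari (edgeR adjusted p = 0.37 and 0.149), and the log2 value of the interaction was 0.33 (SE 0.21, edgeR adjusted p = 0.321). Os09t0528700-00, similar to CYP78A9, had 0.416 to 1.49 cpm over the 12 libraries and did not pass, and Os03t0134500-00, also described as CYP78A9, was untested.

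**Figure D2:**
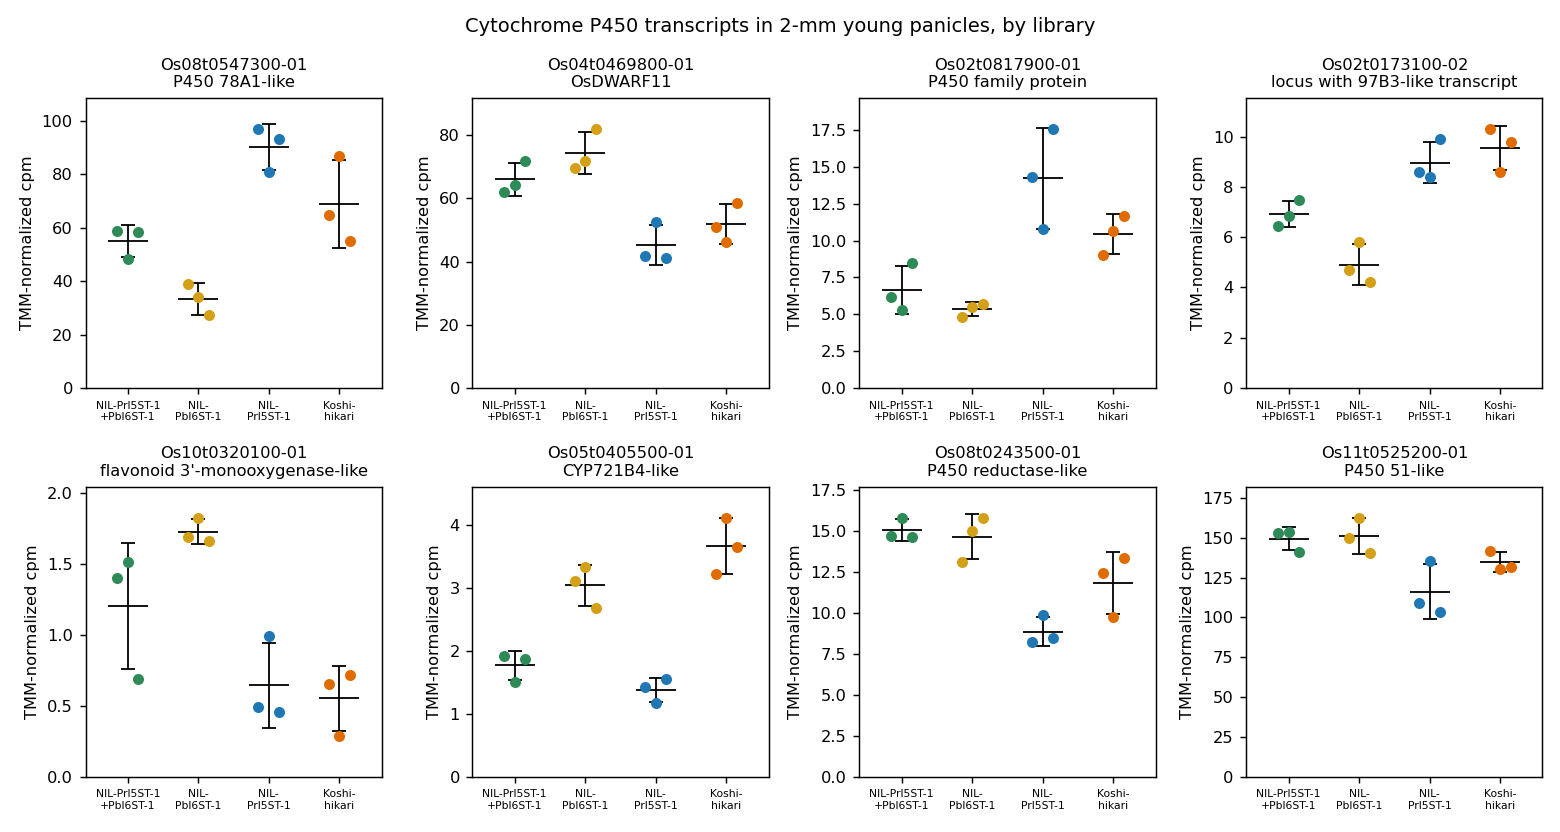
TMM-normalized cpm (vertical axes, from 0) of 8 P450 transcripts in each library of the 4 lines. Points are libraries, bars are means and whiskers are 1 SD (n = 3 each). Os08t0547300-01 was lowest in NIL-Pbl6ST-1 (33.3 cpm), Os04t0469800-01 highest there (74.5 cpm), and Os05t0405500-01 was low in both lines with the Prl5 segment.

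Among the members lower in NIL-Pbl6ST-1 were the 3 transcripts of Os02g0173100, 1 of them similar to P450 97B3. In other plants the CYP97 family hydroxylates carotenoids. The most counted, Os02t0173100-02, had 6.45, 6.84 and 7.46 cpm in NIL-Prl5ST-1+Pbl6ST-1, 4.69, 5.8 and 4.23 in NIL-Pbl6ST-1, 8.58, 8.42 and 9.9 in NIL-Prl5ST-1 and 10.3, 8.58 and 9.78 in Koshihikari. NIL-Pbl6ST-1 lay lowest, and NIL-Prl5ST-1+Pbl6ST-1 lay between NIL-Pbl6ST-1 and the other lines without overlapping either. The log2 fold change in NIL-Pbl6ST-1 against Koshihikari was -0.96 (SE 0.15, edgeR adjusted p = 0.0021) and passed with each library left out, and that in NIL-Prl5ST-1+Pbl6ST-1 against NIL-Prl5ST-1 was -0.38 (SE 0.13, edgeR adjusted p = 0.0492), which passed in 1 of the 6 fits that left out a library.

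Os02t0817900-01, a P450 family protein, was also lower. It had 6.19, 5.25 and 8.45 cpm in NIL-Prl5ST-1+Pbl6ST-1, 4.81, 5.48 and 5.7 in NIL-Pbl6ST-1, 14.3, 10.7 and 17.6 in NIL-Prl5ST-1 and 9.0, 10.6 and 11.7 in Koshihikari. All libraries with the Pbl6 segment lay below all libraries without it. Log2 fold changes were -0.98 (SE 0.14, edgeR adjusted p = 0.00139) in NIL-Pbl6ST-1 against Koshihikari and -1.11 (SE 0.19, edgeR adjusted p = 0.00106) in NIL-Prl5ST-1+Pbl6ST-1 against NIL-Prl5ST-1, and both passed with each library left out. Against Koshihikari, NIL-Prl5ST-1+Pbl6ST-1 had -0.67 and did not pass (edgeR adjusted p = 0.0904).

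Larger fold changes were found at low counts. Os03t0760200-01, a P450 family protein, had 0.572, 0.68 and 0.544 cpm in NIL-Prl5ST-1+Pbl6ST-1, 0.263, 0.457 and 0.128 in NIL-Pbl6ST-1, 2.62, 1.56 and 13.4 in NIL-Prl5ST-1 and 1.27, 3.5 and 1.75 in Koshihikari. All libraries with the Pbl6 segment were below all without it, and NIL-Prl5ST-1 replicate 3 was far above the other NIL-Prl5ST-1 libraries. It fell in 3 comparisons, with log2 fold changes of -2.84 (SE 0.48, edgeR adjusted p = 0.00354) in NIL-Pbl6ST-1 against Koshihikari, -3.31 (SE 0.67, edgeR adjusted p = 0.00298) in NIL-Prl5ST-1+Pbl6ST-1 against NIL-Prl5ST-1 and -1.83 (SE 0.39, edgeR adjusted p = 0.0348) in NIL-Prl5ST-1+Pbl6ST-1 against Koshihikari. The last was lost when any 1 of the NIL-Prl5ST-1+Pbl6ST-1 libraries was left out, and the first had an adjusted p of 0.0508 when all 12 libraries shared 1 fit. Without NIL-Prl5ST-1 replicate 3, the value in NIL-Prl5ST-1+Pbl6ST-1 against NIL-Prl5ST-1 was -1.75 (edgeR adjusted p = 0.00338).

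Os10t0525000-01 had 0.156, 0.227 and 0.198 cpm in NIL-Prl5ST-1+Pbl6ST-1, 0.30, 0.183 and 0.32 in NIL-Pbl6ST-1, 2.24, 0.955 and 2.14 in NIL-Prl5ST-1 and 0.568, 1.05 and 1.43 in Koshihikari. It was lower in both lines with the Pbl6 segment, with no overlap. It fell in the same 3 comparisons, with log2 fold changes of -3.12 (SE 0.44, edgeR adjusted p = 0.000224) in NIL-Prl5ST-1+Pbl6ST-1 against NIL-Prl5ST-1, -2.35 (SE 0.46, edgeR adjusted p = 0.0215) in NIL-Prl5ST-1+Pbl6ST-1 against Koshihikari and -1.93 (SE 0.44, edgeR adjusted p = 0.0186) in NIL-Pbl6ST-1 against Koshihikari. Of 6 fits that each dropped a library, the first passed in 6, the second in 3 and the third in 2. The second transcript of the locus, Os10t0525000-02, passed in the same 3 comparisons, and with a library left out it passed in 6, 1 and 2 of the 6 fits, with adjusted p up to 0.166 in NIL-Prl5ST-1+Pbl6ST-1 against Koshihikari and 0.15 in NIL-Pbl6ST-1 against Koshihikari.

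Os08t0507702-01 had 0.312, 0.265 and 0.346 cpm in NIL-Prl5ST-1+Pbl6ST-1, 0.30, 0.548 and 0.192 in NIL-Pbl6ST-1, 0.874, 0.707 and 1.13 in NIL-Prl5ST-1 and 1.31, 1.2 and 0.914 in Koshihikari, again with no overlap between the lines with and without the Pbl6 segment. Its log2 fold change was -1.89 (SE 0.34, edgeR adjusted p = 0.0139) in NIL-Prl5ST-1+Pbl6ST-1 against Koshihikari, -1.66 (SE 0.37, edgeR adjusted p = 0.0172) in NIL-Pbl6ST-1 against Koshihikari and -1.57 (SE 0.38, edgeR adjusted p = 0.00812) in NIL-Prl5ST-1+Pbl6ST-1 against NIL-Prl5ST-1. The first was lost without Koshihikari replicate 1 (adjusted p = 0.0604) or NIL-Prl5ST-1+Pbl6ST-1 replicate 1 (0.0664) or 2 (0.0914), the second without Koshihikari replicate 1 (0.0639) or NIL-Pbl6ST-1 replicate 1 (0.0956) or 3 (0.0662), and the third without NIL-Prl5ST-1 replicate 3 (0.0581).

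Os08t0465700-01 passed in 1 of the 5 comparisons between lines, NIL-Pbl6ST-1 against Koshihikari, and in the test of any difference (edgeR adjusted p = 0.0359). It had 0.375, 0.0914 and 0.128 cpm in NIL-Pbl6ST-1 and 0.961, 1.49 and 0.517 cpm in Koshihikari, a log2 fold change of -2.14 (SE 0.54, edgeR adjusted p = 0.0299). The value was -3.12 without NIL-Pbl6ST-1 replicate 1, and the call was lost without NIL-Pbl6ST-1 replicate 2 (adjusted p = 0.119) or 3 (0.101) or Koshihikari replicate 1 (0.077). Os08t0465700-01 and Os08t0507702-01 rest on few reads, since 3 counts correspond to 0.0945 to 0.187 cpm. Os03t0760200-01 and Os10t0525000-01 also had values within that range in lines with the Pbl6 segment, so their large fold changes share this limit.

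Leaf mesophyll markers were measured in the same libraries. The 4 listed leaf mesophyll loci, which encode Rubisco small subunits and a light-harvesting protein, summed to 3.86 to 6.45 cpm in NIL-Prl5ST-1+Pbl6ST-1, 2.33 to 4.16 in NIL-Pbl6ST-1, 5.69 to 7.43 in NIL-Prl5ST-1 and 3.26 to 8.29 in Koshihikari, so that NIL-Prl5ST-1+Pbl6ST-1 and NIL-Pbl6ST-1 each overlapped Koshihikari. Of their 6 tested transcripts, 2 were lower in NIL-Pbl6ST-1 against Koshihikari, 2 in NIL-Prl5ST-1+Pbl6ST-1 against Koshihikari and 4 in NIL-Prl5ST-1+Pbl6ST-1 against NIL-Prl5ST-1, beside 5.42%, 1.3% and 12.1% of all transcripts lower, and 0 were higher. All of these were Rubisco small subunit transcripts. The light-harvesting transcripts Os01t0600900-02 and Os01t0600900-03 did not pass and had log2 fold changes of -0.39 and -0.34 in NIL-Pbl6ST-1 against Koshihikari, 0.39 and 0.36 in NIL-Prl5ST-1+Pbl6ST-1 against Koshihikari, and -0.09 and -0.13 in NIL-Prl5ST-1+Pbl6ST-1 against NIL-Prl5ST-1. Os12t0291100-02, a Rubisco small subunit transcript, was at 0 in all 3 NIL-Prl5ST-1+Pbl6ST-1 libraries, and the locus Os12g0292400 had at most 3 counts in every library. The part of leaf RNA in the lower P450 transcripts was not tested.

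**Figure D3:**
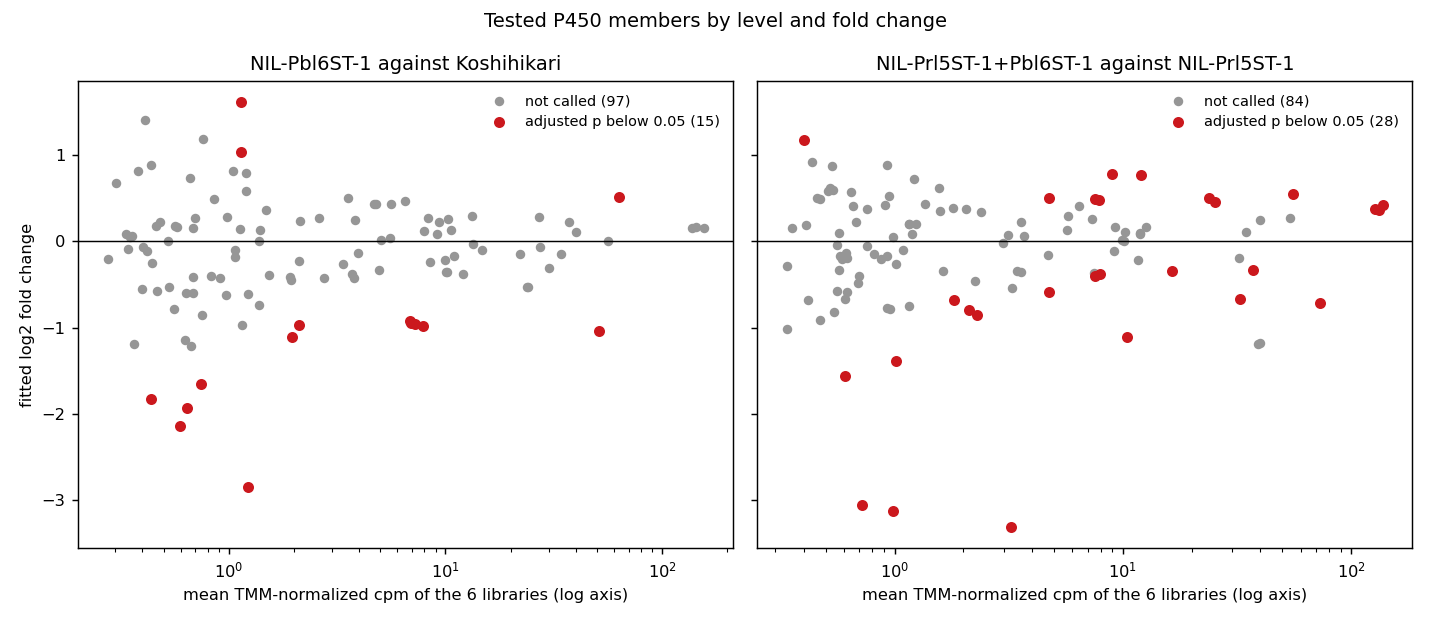
Fitted log2 fold change (vertical axis) against mean TMM-normalized cpm of the 6 libraries (horizontal log axis) for the 112 tested members, in NIL-Pbl6ST-1 against Koshihikari (left) and NIL-Prl5ST-1+Pbl6ST-1 against NIL-Prl5ST-1 (right). Red points, 15 and 28, passed an adjusted p of 0.05 and the largest changes, down to -3.31 for Os03t0760200-01 (-1.75 without NIL-Prl5ST-1 replicate 3), were among low-count transcripts.

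Phenylpropanoid and flavonoid enzymes were described for 5 members, 4 of them tested. Os10t0320100-01, similar to flavonoid 3'-monooxygenase (P450 75B2), which adds a hydroxyl group to the flavonoid B ring, had 1.4, 1.51 and 0.692 cpm in NIL-Prl5ST-1+Pbl6ST-1, 1.69, 1.83 and 1.67 in NIL-Pbl6ST-1, 0.492, 0.99 and 0.453 in NIL-Prl5ST-1 and 0.655, 0.288 and 0.715 in Koshihikari. The 3 NIL-Pbl6ST-1 libraries were the highest of all 12, and NIL-Prl5ST-1+Pbl6ST-1 replicate 3 fell within the range of NIL-Prl5ST-1 and Koshihikari. The log2 fold change in NIL-Pbl6ST-1 against Koshihikari was 1.61 (SE 0.31, edgeR adjusted p = 0.00734) and passed with each library left out, while NIL-Prl5ST-1+Pbl6ST-1 against Koshihikari did not pass (edgeR adjusted p = 0.222).

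Its neighbour with the same description, Os10t0317900-01, had 1.35, 1.47 and 1.73 cpm in NIL-Prl5ST-1+Pbl6ST-1, 1.8, 1.1 and 1.02 in NIL-Pbl6ST-1, 0.765, 1.06 and 0.906 in NIL-Prl5ST-1 and 2.45, 1.68 and 1.19 in Koshihikari and did not pass in any test. Os05t0494000-01, similar to P450 98A1 of lignin precursor synthesis, had 31.2, 27.9 and 30.7 cpm in NIL-Prl5ST-1+Pbl6ST-1, 30.2, 26.6 and 23.6 in NIL-Pbl6ST-1, 31.9, 38.3 and 32.7 in NIL-Prl5ST-1 and 35.3, 32 and 32.9 in Koshihikari. It passed only the test of any difference among the 4 lines (edgeR adjusted p = 0.0492), with the lowest mean in NIL-Pbl6ST-1.

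Fatty acid and cutin enzymes were described for 8 members, and 3 were tested. None passed in any of the 7 tests. The most counted was Os12t0150200-01, similar to CYP94C20, with a mean of 3.61 cpm over the 12 libraries. Os03t0168600-01, described with a role in anther cutin and pollen exine formation, had a mean of 0.545 cpm. The 2 listed tapetum loci summed to 3.27 to 3.41 cpm in NIL-Prl5ST-1+Pbl6ST-1, 2.56 to 3.30 in NIL-Pbl6ST-1, 2.69 to 3.15 in NIL-Prl5ST-1 and 2.35 to 2.66 in Koshihikari. All NIL-Prl5ST-1+Pbl6ST-1 and NIL-Prl5ST-1 libraries lay above all Koshihikari libraries in this sum. Their 1 tested transcript did not pass in any of the 7 tests, and a difference in stage or cell composition was not tested.

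Outside the classes above, 2 other called members were described with a family number. Os03t0650200-00, similar to CYP92C5, had 9.15, 8.35 and 9.0 cpm in NIL-Prl5ST-1+Pbl6ST-1 and 6.45, 7.81 and 4.66 cpm in NIL-Prl5ST-1, a log2 fold change of 0.49 (SE 0.17, edgeR adjusted p = 0.0448) that passed in 1 of the 6 fits that left out a library. Os05t0405500-01, similar to CYP721B4, was lower in both lines with the Prl5 segment. It had 1.92, 1.51 and 1.88 cpm in NIL-Prl5ST-1+Pbl6ST-1, 3.12, 3.34 and 2.69 in NIL-Pbl6ST-1, 1.42, 1.17 and 1.55 in NIL-Prl5ST-1 and 3.23, 4.12 and 3.66 in Koshihikari.

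The NIL-Prl5ST-1+Pbl6ST-1 and NIL-Prl5ST-1 libraries of Os05t0405500-01 all lay below the NIL-Pbl6ST-1 and Koshihikari libraries. Its log2 fold change was -1.40 (SE 0.21, edgeR adjusted p = 0.0117) in NIL-Prl5ST-1 against Koshihikari and -1.06 (SE 0.20, edgeR adjusted p = 0.0202) in NIL-Prl5ST-1+Pbl6ST-1 against Koshihikari. The first had an adjusted p of 0.0546 without NIL-Prl5ST-1 replicate 1, and the second was lost without NIL-Prl5ST-1+Pbl6ST-1 replicate 1 (0.0698) or replicate 2 (0.111). The adjacent locus with the same description, Os05t0405600-01, had 3.74, 4.72 and 4.79 cpm in NIL-Prl5ST-1+Pbl6ST-1, 4.17, 5.03 and 3.84 in NIL-Pbl6ST-1, 5.52, 4.0 and 5.44 in NIL-Prl5ST-1 and 4.81, 5.61 and 6.04 in Koshihikari, and did not pass in any test.

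Os05g0405500 lies on chromosome 5 before Prl5 in identifier order. Of 12 tested members of chromosome 5, it was the 1 that passed in NIL-Prl5ST-1 against Koshihikari, beside 0.743% of all transcripts tested. Of 14 tested members of chromosome 6, both transcripts of Os06g0642500, which lies before Pbl6 in identifier order, were the 2 that passed in NIL-Pbl6ST-1 against Koshihikari, beside 8.49% of all transcripts, and they count as 1 locus. Os06t0642500-01 had 1.3, 1.59 and 2.03 cpm in NIL-Prl5ST-1+Pbl6ST-1, 1.5, 1.55 and 1.15 in NIL-Pbl6ST-1, 2.84, 2.62 and 3.43 in NIL-Prl5ST-1 and 2.53, 3.5 and 2.38 in Koshihikari, with all libraries that carried the Pbl6 segment below all others.

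The log2 fold change of Os06t0642500-01 was -0.97 (SE 0.23, edgeR adjusted p = 0.0222) in NIL-Pbl6ST-1 against Koshihikari, lost when any 1 of the NIL-Pbl6ST-1 libraries was left out, and -0.86 (SE 0.23, edgeR adjusted p = 0.0131) in NIL-Prl5ST-1+Pbl6ST-1 against NIL-Prl5ST-1, lost without NIL-Prl5ST-1+Pbl6ST-1 replicate 1 (adjusted p = 0.0588) or NIL-Prl5ST-1 replicate 3 (0.0745). Os06t0680700-01, the most counted member and the 1 tested member after Pbl6, had a log2 fold change of 0.15 in NIL-Pbl6ST-1 against Koshihikari (edgeR adjusted p = 0.393). Its value in NIL-Prl5ST-1+Pbl6ST-1 against NIL-Prl5ST-1 was 0.42 (SE 0.13, edgeR adjusted p = 0.0246), lost without NIL-Prl5ST-1+Pbl6ST-1 replicate 2 (adjusted p = 0.133) or NIL-Prl5ST-1 replicate 1 (0.102) or 3 (0.124). The ends of the ST-1 segments were not used here, so sequence differences at these loci and regulation from elsewhere cannot be told apart.

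**Figure D4:**
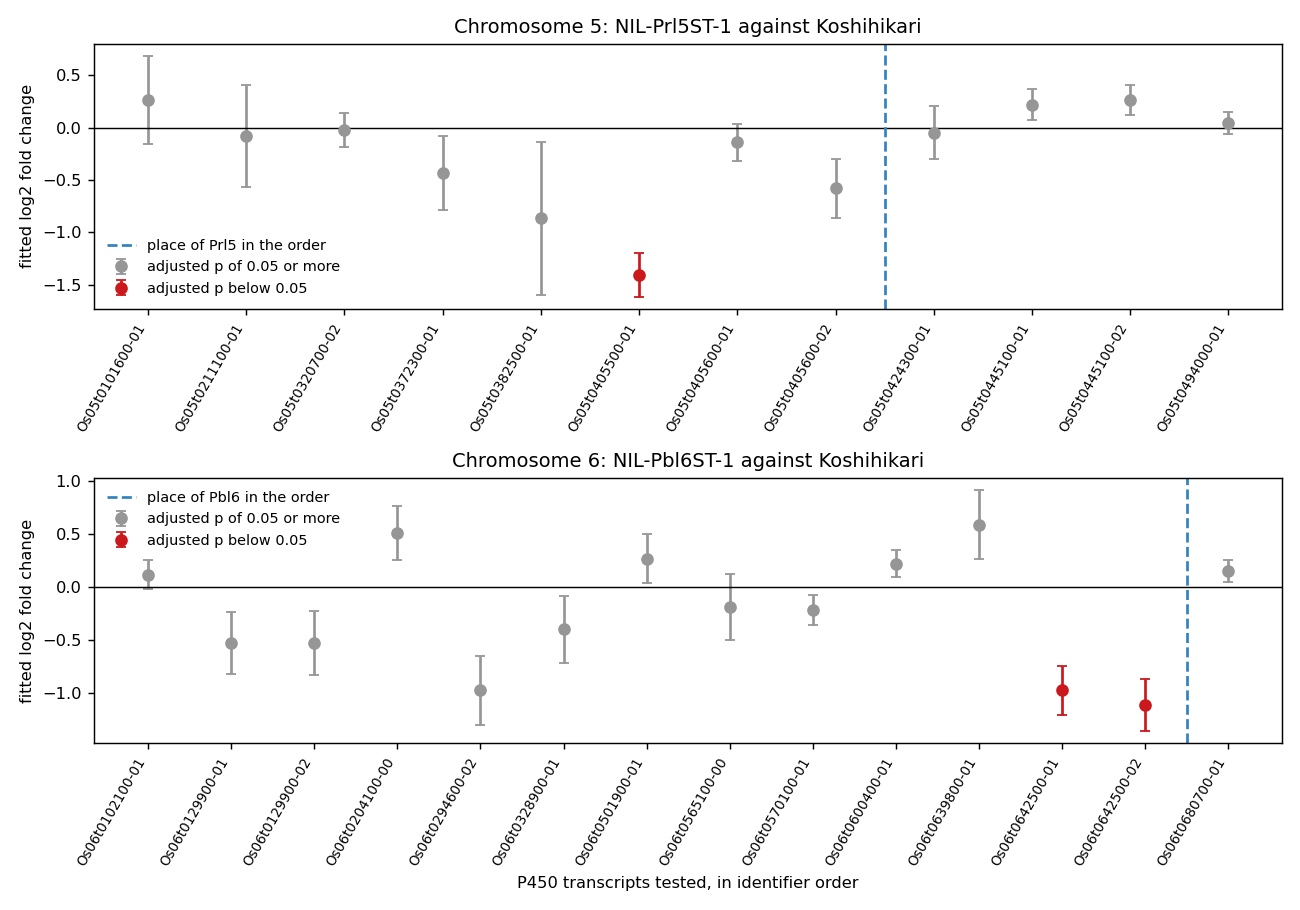
Fitted log2 fold change with its SE (vertical axes) of the tested members of chromosome 5 in NIL-Prl5ST-1 against Koshihikari (top) and of chromosome 6 in NIL-Pbl6ST-1 against Koshihikari (bottom), in identifier order and not to scale in distance. The dashed line marks the place of Prl5 or Pbl6 in the order, and red points passed an adjusted p of 0.05, 1 on chromosome 5 and 2 on chromosome 6, all lower and all before the line.

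Members with a general description held the other calls. Os08t0472800-01, a P450 family protein, was higher in NIL-Prl5ST-1. It had 26, 25.8 and 23.9 cpm in NIL-Prl5ST-1+Pbl6ST-1, 25.7, 18.2 and 18.8 in NIL-Pbl6ST-1, 43.1, 32.6 and 45 in NIL-Prl5ST-1 and 20.4, 27.3 and 21.8 in Koshihikari, with all NIL-Prl5ST-1 libraries above all others. The log2 fold change was 0.80 (SE 0.15, edgeR adjusted p = 0.0364) in NIL-Prl5ST-1 against Koshihikari, which passed only without Koshihikari replicate 2 or without NIL-Prl5ST-1 replicate 2 among the 6 fits that left out a library. The comparison of NIL-Prl5ST-1+Pbl6ST-1 with NIL-Prl5ST-1 gave -0.67 (SE 0.12, edgeR adjusted p = 0.00136), which passed in all 6.

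Os10t0513900-01, also a general description, was higher in NIL-Pbl6ST-1, with 1.65, 1.6 and 1.35 cpm in NIL-Pbl6ST-1 and 0.568, 0.767 and 0.914 cpm in Koshihikari. Its log2 fold change was 1.03 (SE 0.27, edgeR adjusted p = 0.0339), and it passed in 2 of the 6 fits that left out a library. Os05t0424300-01 was lower in NIL-Prl5ST-1+Pbl6ST-1, with 0.572, 0.34 and 0.791 cpm in NIL-Prl5ST-1+Pbl6ST-1 and 1.75, 1.24 and 1.42 cpm in NIL-Prl5ST-1, a log2 fold change of -1.38 (SE 0.33, edgeR adjusted p = 0.00812) that passed in all 6.

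Further calls in NIL-Prl5ST-1+Pbl6ST-1 against NIL-Prl5ST-1 had edgeR adjusted p of 0.014 to 0.0489. Os02t0666500-01, Os05t0320700-02, Os06t0600400-01 and Os02t0204700-00 had log2 fold changes of 0.50, 0.50, 0.47 and 0.45, and passed in 3, 2, 1 and 1 of the 6 fits that left out a library. Os01t0211200-00 had 1.18 (SE 0.41, edgeR adjusted p = 0.0473), the largest of these rises, and its call was lost with any library left out. On the lower side, Os01t0627500-01 had -0.68 (SE 0.23, edgeR adjusted p = 0.0434), and Os05t0445100-01 had -0.33 (SE 0.10, edgeR adjusted p = 0.0253). Os02t0185200-01, at -0.59 (SE 0.21, edgeR adjusted p = 0.0489), was the 1 called member whose lines overlapped. With a library left out these 3 passed in 1, 3 and 2 of the 6 fits.

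Which libraries the count in NIL-Prl5ST-1+Pbl6ST-1 against NIL-Prl5ST-1, out of 112 members tested, rested on was checked in turn. It was 17 without NIL-Prl5ST-1+Pbl6ST-1 replicate 1 (18.8% of all transcripts), 13 without NIL-Prl5ST-1+Pbl6ST-1 replicate 2 (18.1%), 16 without NIL-Prl5ST-1 replicate 1 (12.3%) and 12 without NIL-Prl5ST-1 replicate 3 (13.2%). The count in NIL-Pbl6ST-1 against Koshihikari was 9 without NIL-Pbl6ST-1 replicate 1 (3.37%) and 7 without NIL-Pbl6ST-1 replicate 3 (4.04%). That in NIL-Prl5ST-1+Pbl6ST-1 against Koshihikari was 1 without NIL-Prl5ST-1+Pbl6ST-1 replicate 1 (0.907%), 0 without NIL-Prl5ST-1+Pbl6ST-1 replicate 2 (0.853%) and 3 without Koshihikari replicate 3 (1.79%).

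Not all large differences between libraries followed the lines. Os06t0129900-01, similar to CYPD, had 34.8, 17.8 and 21.4 cpm in NIL-Prl5ST-1+Pbl6ST-1, 18.5, 28.6 and 11.9 in NIL-Pbl6ST-1, 25.7, 20.4 and 119.5 in NIL-Prl5ST-1 and 17.7, 40.9 and 27.1 in Koshihikari. NIL-Prl5ST-1 replicate 3 stood at 119.5 cpm, above all other libraries, and the transcript did not pass in any test.

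**Figure D5:**
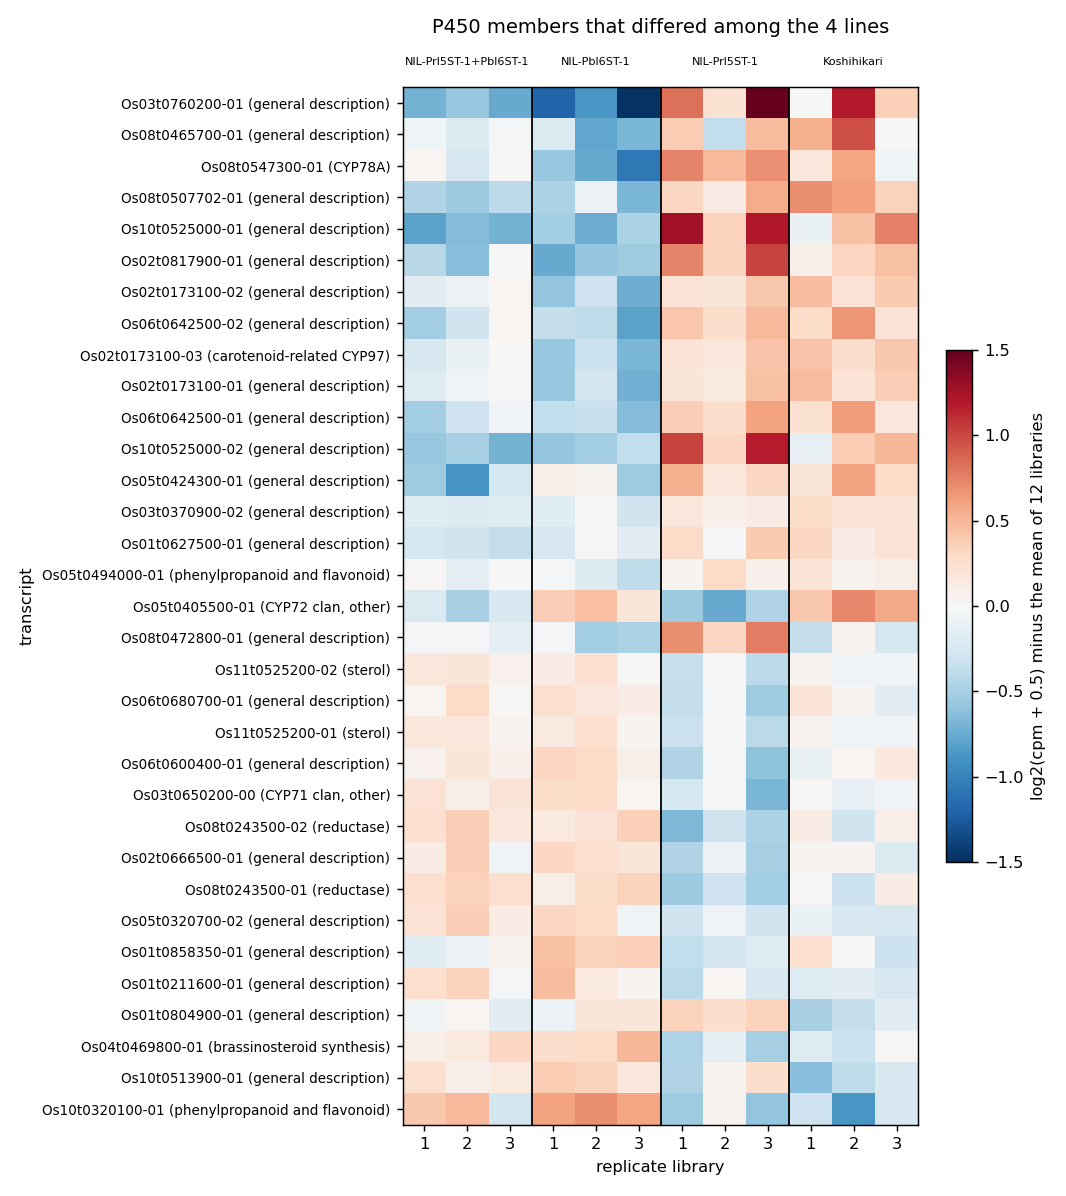
The 33 P450 transcripts that differed among the 4 lines (down the page, each with its description class) in the 12 libraries (across, by line and replicate). Colour is log2 of cpm plus 0.5, minus the mean of the 12 libraries, red above and blue below, ordered by NIL-Pbl6ST-1 minus Koshihikari so that the upper transcripts are mostly blue in both lines with the Pbl6 segment, and Os05t0405500-01 is blue in both lines with the Prl5 segment.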

How the data were processed

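RNA of 2-mm young panicles was sequenced from 4 lines with 3 libraries each. The authors deposited 1 table of raw counts per transcript for the 12 libraries, with a description for each transcript. The submitters' processing notes name bcl2fastq, Bowtie and the build IRGSP-1.0. The counter, the strand setting and the treatment of reads that match several places were not given in the sources used here, so reads of a gene and of an antisense or near-identical partner may be mixed. The study normalized with edgeR in R.

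The deposited counts were filtered with filterByExpr (count minimum 10, total 15, smallest group 3), which kept 31643 transcripts, scaled by TMM and tested with edgeR 4.0.16 in R 4.3.3 by the two-sided quasi-likelihood F test, with Benjamini-Hochberg adjustment over all 31643 and a threshold of 0.05. The 5 comparisons used the 6 libraries of the lines compared. The interaction and the test of any difference used all 12, and the test of any difference has no direction, so its calls were counted only. All cpm are TMM-normalized. On simulated counts with 200 changed transcripts among 31643, the fit of NIL-Pbl6ST-1 against Koshihikari recovered 99.5% of them, with 15 unchanged transcripts among 214 calls. The interaction recovered 87% (10 unchanged of 184 calls) and the test of any difference 94.5% (23 of 212). The changed transcripts were drawn from those with a mean of at least 50 counts. They were shifted by larger folds than many called members showed, and no library was made to stand apart. These rates therefore do not describe members at low counts or with smaller changes.

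Alternatives were DESeq2 1.42.0, its size factors, edgeR's exact test, no filter, a minimum of 10 counts per library, all 12 libraries in 1 fit, a replicate block, counts summed to loci, and each library left out. Named transcripts were those called or on hormone lists, the 5 that rose and the 5 that fell most in each test with a mean of at least 50 counts, and the 5 most counted; others were named after their values were seen. The members, classes and lists were chosen with earlier results of these data known. The reference table at hand could not be matched to these identifiers, so no sequences are shown.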

Additional observations from a re-analysis of the deposited data

How the results depend on the processing

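Of the called members' fold changes 0 reversed. With a library left out 191 stayed past the threshold and 117 did not, and under the other alternatives 367 did and 23 did not. Members called in NIL-Prl5ST-1 against Koshihikari numbered 2, but 6 with all 12 libraries in 1 fit (11.5% of all transcripts), 0 to 8 with 1 library left out and 26 with both Koshihikari replicate 2 and NIL-Prl5ST-1 replicate 2 left out (36.8%), an alternative chosen after seeing the data. In NIL-Pbl6ST-1 against Koshihikari the count of 15 was 9 of 71 with a minimum of 10 counts per library (8.71% of all transcripts), 15 of 238 or 6.3% with no filter (7.63%) and 7 to 21 with a library left out. In NIL-Prl5ST-1+Pbl6ST-1 against Koshihikari the 5 became 8 in edgeR's exact test (4.19%), 1 of 71 with that minimum (1.75%) and 0 to 5 with a library left out. In NIL-Prl5ST-1+Pbl6ST-1 against NIL-Prl5ST-1 the 28 became 12 to 34. In NIL-Prl5ST-1+Pbl6ST-1 against NIL-Pbl6ST-1 the 1 became 2 in the exact test (2.83%), 2 of 238 with no filter (2.35%), 0 with all 12 libraries in 1 fit (0.329%), and stayed 1 with each library left out. The interaction count of 0 became 0 to 9 with a library left out and 11 without both libraries (32.1%). Any difference among the lines gave 19 to 37 in place of 33, and 40 without both libraries. The 19 were 17% of members, beside 12% (without NIL-Prl5ST-1 replicate 1) or 11.5% (without NIL-Prl5ST-1 replicate 3) of all transcripts. Without Koshihikari replicate 2 the 37 were 33% beside 39.9%, and without both libraries the 40 were 35.7% beside 47.6%. The stricter filter left fewer transcripts to test. The cause of these shifts was not tested.

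The main fits did not pair samples by replicate number, and the labels did not say whether equal numbers share a batch. In 18 same-numbered pairs the correlations of deviations ran from -0.31 to 0.36, and in 36 other pairs from -0.28 to 0.29. With 3 libraries per line, these overlapping ranges cannot exclude a pairing. With a replicate block, NIL-Prl5ST-1 against Koshihikari had 0 members (0.218% of all transcripts), NIL-Prl5ST-1+Pbl6ST-1 against Koshihikari 8 (4.08%), NIL-Pbl6ST-1 against Koshihikari 14 (5.53%), NIL-Prl5ST-1+Pbl6ST-1 against NIL-Prl5ST-1 28 (27.4%), NIL-Prl5ST-1+Pbl6ST-1 against NIL-Pbl6ST-1 1 (0.711%), the interaction 0 (0.449%) and any difference 28 (23.9%). The self-test made calls at 3 libraries per line. Members under about 1 cpm rest on few reads, and 126 of 238 were too low to test.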

Other observations

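Hormone and pathway lists written by locus number, rather than by the description in the table, gave further counts. Most of their loci carry only a general description there, so no role is given to single identifiers. Some lists also held loci outside the members. Members were 1 of 3 jasmonate, 2 of 3 abscisic acid and 4 of 5 sterol and carotenoid loci. They were 6 of 7 fatty acid, cutin and pollen wall loci and 7 of 12 phenylpropanoid and flavonoid loci. A call on these lists need not be of a member. The counts stand beside 8.49% of all transcripts called in NIL-Pbl6ST-1 against Koshihikari (3.07% higher, 5.42% lower), 25.3% in NIL-Prl5ST-1+Pbl6ST-1 against NIL-Prl5ST-1 (13.2% higher, 12.1% lower), 0.743% in NIL-Prl5ST-1 against Koshihikari and 2.16% in NIL-Prl5ST-1+Pbl6ST-1 against Koshihikari, and with so few transcripts a list nothing is read from them. Of 7 tested transcripts on the brassinosteroid synthesis list, 2 were higher in NIL-Pbl6ST-1 against Koshihikari and 2 in NIL-Prl5ST-1+Pbl6ST-1 against NIL-Prl5ST-1, both of Os04g0469800. On the brassinosteroid inactivation list, 2 of 3 tested transcripts were higher in NIL-Prl5ST-1+Pbl6ST-1 against NIL-Prl5ST-1 and none passed against Koshihikari. On the list of sterol and carotenoid P450s, 5 of 9 tested transcripts were lower in NIL-Pbl6ST-1 against Koshihikari, and 2 were higher and 3 lower in NIL-Prl5ST-1+Pbl6ST-1 against NIL-Prl5ST-1. Of 3 tested abscisic acid transcripts, 1 was higher in NIL-Prl5ST-1 against Koshihikari and 1 lower in NIL-Prl5ST-1+Pbl6ST-1 against NIL-Prl5ST-1. Of 4 jasmonate transcripts 1 was higher in NIL-Pbl6ST-1 against Koshihikari, and of 9 phenylpropanoid and flavonoid transcripts 1 was higher in NIL-Pbl6ST-1 against Koshihikari and 1 in NIL-Prl5ST-1+Pbl6ST-1 against NIL-Prl5ST-1. Of 5 fatty acid, cutin and pollen wall transcripts 1 was higher in NIL-Prl5ST-1+Pbl6ST-1 against NIL-Prl5ST-1. The 1 herbicide response transcript was lower in NIL-Prl5ST-1+Pbl6ST-1 and NIL-Pbl6ST-1 against Koshihikari and in NIL-Prl5ST-1+Pbl6ST-1 against NIL-Prl5ST-1. No tested transcript passed in a comparison of lines on the gibberellin (2), strigolactone (4), diterpenoid (2), serotonin (1) and organ size (1) lists, nor among 3 tested transcripts of other strigolactone genes. No transcript was tested on the cytokinin list or among other diterpenoid genes.

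Of the other members that the hormone lists named, Os01t0388000-01, similar to CYP72A5, had 2.49 to 3.01 cpm in NIL-Prl5ST-1+Pbl6ST-1, 2.24 to 2.42 in NIL-Pbl6ST-1, 1.69 to 2.37 in NIL-Prl5ST-1 and 1.63 to 2.23 in Koshihikari. Over the 12 libraries, Os03t0227700-01 ranged from 0.128 to 0.503 cpm, Os07t0681300-00 from 0 to 0.109, and Os01t0700900-01 from 0 to 0.0647. The ranges were 0 to 0.0546 cpm for Os01t0701400-00, 0.643 to 1.56 cpm for Os06t0565100-00, 9.16 to 14.9 cpm for Os02t0221900-01, and 0 to 0.0874 cpm for Os09t0403300-00. Of these 8 transcripts, 4 were too low to test (Os07t0681300-00, Os01t0700900-01, Os01t0701400-00 and Os09t0403300-00), and the other 4 passed in 0 of the 7 tests (edgeR's quasi-likelihood test, adjusted p). Os01t0211600-01 passed only the test of any difference among the lines (edgeR adjusted p = 0.0391), with 7.64, 8.16 and 6.23 cpm in NIL-Prl5ST-1+Pbl6ST-1, 8.94, 7.08 and 6.53 in NIL-Pbl6ST-1, 4.7, 6.51 and 5.31 in NIL-Prl5ST-1 and 5.5, 5.66 and 5.32 in Koshihikari.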
